A study of Mus musculus with 16 samples.

Results

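Transcriptomes of WT-labelled C2C12 cells carrying a vector for the noncoding RNA MUNC or an empty vector were compared. The question was whether their difference depended on the medium, growth medium or differentiation medium. For each gene the difference MUNC minus empty vector in growth medium was subtracted from the same difference in differentiation medium, which is the interaction of vector and medium on the log2 scale. A positive interaction means that the MUNC cells stood higher, relative to the empty-vector cells, in differentiation medium than in growth medium. Of 14972 genes tested, 499 passed (3.33%), 186 with a positive interaction (1.24%) and 313 with a negative one (2.09%). The 8 WT-labelled libraries of 16 entered this contrast, 2 in each of 4 groups.

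As source, C57BL/6 mice were given, with post natal day 21 for every library. C2C12 is a mouse myoblast line from skeletal muscle. Its cells divide in growth medium and, when serum is withdrawn, leave the cell cycle, fuse into multinucleated myotubes and assemble sarcomeres under the control of the transcription factor MyoD and its relatives. MUNC is a noncoding RNA transcribed from the distal regulatory region upstream of Myod1. A gene group prominent in the results below is the interferon response, in which interferons released by cells act through their receptors on genes that restrict viruses.

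Of 8 groups, 4 carried the genotype label wild type. They held cells stably transfected with a control vector (EV) or with a vector for spliced MUNC, each as proliferating cells in growth medium (GM) and as differentiating cells in differentiation medium (DM, called DM3 in the series' design). The other 8 libraries had the same 4 conditions under the label MYOD-/-, in cells made with CRISPR-Cas9 and screened from single cells. RNA was enriched for poly(A) and read in pairs. The labels give neither the number of separate transfections nor whether the transfected cells were pools or clones, so an effect of MUNC and a difference between the transfected populations cannot be told apart.

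The total estimated count of a library was between 48237333 and 107732971 in the WT-labelled libraries and between 35832002 and 107732971 in all 16. The 2 libraries of a WT-labelled group correlated at 0.987 to 0.992 (Pearson, log2 CPM across genes, which are not independent replicates). Zrsr1, an imprinted splicing factor gene, took 2.69% to 5.54% of the counts in the 4 WT-labelled libraries of replicate 2 and 0.00792% to 0.0344% in those of replicate 1. Levels are CPM, the counts divided by the TMM-scaled library size, differences are log2 fold changes ± SE, and every adjusted p is from edgeR's quasi-likelihood test, adjusted by Benjamini-Hochberg over all genes tested. In each pair of values below the libraries of replicate 1 and 2 follow in that order, and 4 pairs without group names stand for EV GM, EV DM, MUNC GM and MUNC DM.

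Myod1, the gene that the knockout targets (GRCm38, chromosome 7, 46376474 to 46379092), went against the labels. Its counts were 18 and 1 in EV GM, 13 and 1 in EV DM, 235 and 225 in MUNC GM and 162 and 178 in MUNC DM of the WT-labelled cells. In the MYOD-/- labelled cells they were 519 and 476, 1271 and 1858, 535 and 229, and 1044 and 1266 in the same order. Genotypes are therefore named as labels throughout, WT-labelled or knockout-labelled. Which bases of Myod1 were deleted is not stated in the labels, and these counts do not test an edit that spares most of its RNA. Within the WT-labelled cells Myod1 stood at 0.291 and 0.0191 CPM in EV GM, 0.143 and 0.0136 CPM in EV DM, 3.72 and 4.06 CPM in MUNC GM and 3.18 and 1.703 CPM in MUNC DM. It was thus higher with MUNC in both media (log2 difference 4.56 in GM and 4.83 in DM, adjusted p = 0.00192 and 0.000669), and its interaction of 0.26 ± 1.06 did not pass (adjusted p = 0.953).

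MUNC itself, listed as Gm45923 (GRCm38, chromosome 7, 46371403 to 46372492), stood at 11.04 and 1.49 CPM in EV GM, 8.95 and 1.15 CPM in EV DM, 1821 and 2225 CPM in MUNC GM and 2012 and 2669.7 CPM in MUNC DM. All 4 MUNC libraries lay far above all 4 EV libraries, and the log2 interaction of 0.52 ± 1.56 did not pass (adjusted p = 0.93). Vector-derived and endogenous MUNC were not separated in the counts.

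The 313 genes with a negative interaction had a median log2 interaction of -2.35 and the 186 with a positive one a median of 1.48, against 0.01 over all genes tested. All 186 and all 313 had the same sign within replicate 1 and within replicate 2. The test had selected them from these same libraries, so that this agreement was largely fixed in advance and is not a replication. The vector difference by itself passed for 2060 genes in GM (13.8%) and for 4980 in DM (33.3%). In the counts below, alone means that the other difference or change did not pass, not that it was absent. Among the 313 genes, 242 did not pass the vector test in GM and were lower with MUNC in DM, 47 were lower in both media, 10 were higher in GM alone, 7 were higher in both, 6 were higher in GM and lower in DM, and 1 passed in neither. Among the 186 genes, 126 did not pass in GM and were higher with MUNC in DM, 27 were higher in both media, 19 were lower in GM alone, 9 were lower in GM and higher in DM, 3 were lower in both and 2 passed in neither. The count of 499 became 327 without EV GM replicate 1, 212 without EV GM replicate 2, 251 without EV DM replicate 2, 198 without MUNC GM replicate 1, 308 without MUNC GM replicate 2, 205 without MUNC DM replicate 1 and 268 without MUNC DM replicate 2. Leaving out EV DM replicate 1 gave 496 genes. The count of the vector difference in GM was 993 and 1133 without EV GM replicate 1 and 2 and 1200 and 963 without MUNC GM replicate 1 and 2, and that in DM was 3250 without EV DM replicate 2 and 3163 and 3140 without MUNC DM replicate 1 and 2.

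**Figure D1:**
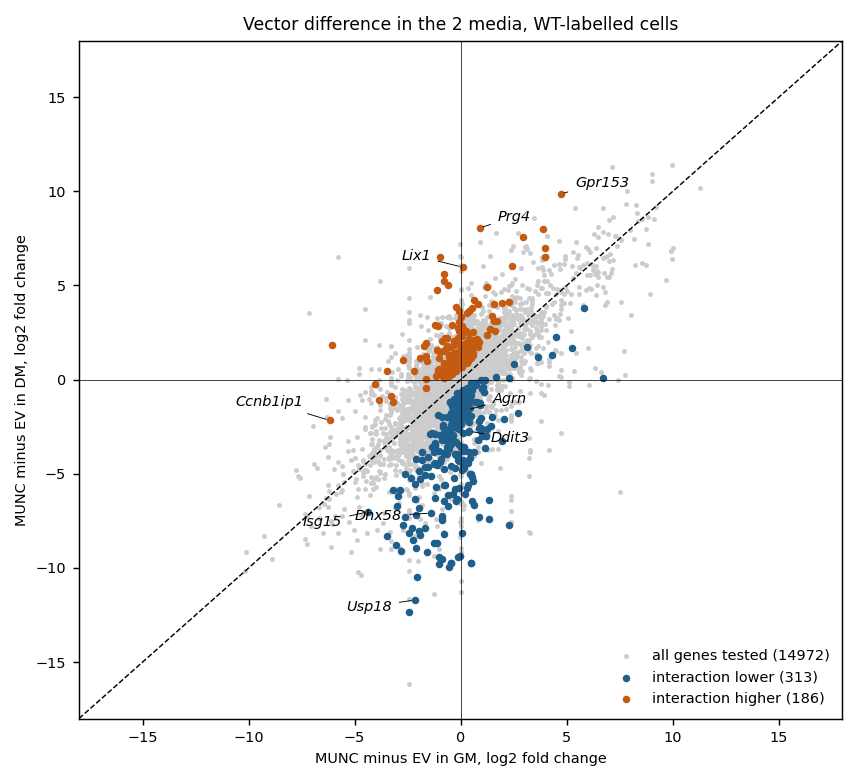
Log2 fold change of MUNC against EV in GM (x axis) and in DM (y axis) for the 14972 genes tested in WT-labelled cells, each point 1 gene, with the 313 genes of negative interaction in blue, the 186 of positive interaction in orange and the line of equal difference dashed. Most blue points lie near 0 on the x axis and below 0 on the y axis, as does Ddit3, and Dhx58 lies below 0 on both axes.

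Seen as responses to the medium, most of these genes passed the test of DM against GM in only 1 of the 2 cell populations. DM minus GM passed for 5619 genes in EV cells (37.5%, 2876 higher and 2743 lower) and for 5956 in MUNC cells (39.8%, 3075 higher and 2881 lower). The calls of limma on log2(TPM + 1) divided into 3712 up and 1951 down in EV cells and into 4195 up and 1921 down in MUNC cells. Of the 313 genes, 160 rose in EV cells and did not pass in MUNC cells, 55 rose in both, 33 rose in EV and fell in MUNC cells, 48 fell in MUNC cells alone and 17 fell in both. Of the 186, 86 rose in MUNC cells alone, 41 fell in EV cells alone, 25 fell in EV and rose in MUNC cells, 23 rose in both and 11 fell in both. In 244 of the 313 genes both EV DM libraries lay above the other 6, and in 133 of the 186 both MUNC DM libraries did. These counts describe genes that the test had already selected (2.09% and 1.24% of all tested).

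Among 27 gene lists, the interferon response had the largest share of genes past the interaction test. Of its 56 genes 55 were tested, and 37 passed with a negative interaction and 0 with a positive one, where 2.09% of all genes passed in that direction. This list, like the others, was chosen with earlier results of these data known. The median log2 interaction of the 55 was -4.88, against 0.01 over all genes, and 53 of them were negative. In EV cells 53 of the 55 rose from GM to DM (19.2% of all genes rose), with a median log2 change of 6.44. In MUNC cells 28 rose (20.5% of all genes), with a median of 1.34, against medians over all genes of 0.02 and 0.06. Between the vectors, 21 were lower with MUNC in GM (7.71% of all genes, median difference -1.20) and 53 were lower in DM (17.7% of all genes, median -7.02), with 1 higher in DM, against medians over all genes of -0.03 and -0.002. The summed level of the list was between 941 and 1103 CPM in EV GM, 22952 and 23155 in EV DM, 567 and 584 in MUNC GM, and 1250 and 1261 in MUNC DM. The EV DM libraries lay above the other 6 for 53 of the 55 genes.

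Irf9 and Oas3 are shown by sequence because they were the 2 members named here with the smallest adjusted p whose promoters the RefSeq table held (GRCm38.p6, 250 bases before the transcription start to 50 after). Irf9 encodes a DNA-binding factor of the interferon regulatory factor family, and Oas3 an oligoadenylate synthetase that senses double-stranded RNA. The promoters were searched on both strands for the core of the interferon-stimulated response element, GAAA followed by any 2 bases and GAAA again, for CAGCTG, an E-box that MyoD can bind, and for the CArG box, the element bound by serum response factor. Each promoter printed here holds at most 1 match, so that no matches overlap. The Oas3 promoter (chr5:120777610-120777909, minus strand) holds this interferon core once, in capitals, and the Irf9 promoter (chr14:55603735-55604034, plus strand, the first of 2 starts) holds none of the 3 motifs.
Irf9: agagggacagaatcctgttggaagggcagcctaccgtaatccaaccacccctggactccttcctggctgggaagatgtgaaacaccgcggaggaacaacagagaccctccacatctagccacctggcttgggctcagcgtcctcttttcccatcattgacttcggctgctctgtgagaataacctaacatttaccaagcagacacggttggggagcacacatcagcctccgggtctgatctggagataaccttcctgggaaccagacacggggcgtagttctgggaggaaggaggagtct
Oas3: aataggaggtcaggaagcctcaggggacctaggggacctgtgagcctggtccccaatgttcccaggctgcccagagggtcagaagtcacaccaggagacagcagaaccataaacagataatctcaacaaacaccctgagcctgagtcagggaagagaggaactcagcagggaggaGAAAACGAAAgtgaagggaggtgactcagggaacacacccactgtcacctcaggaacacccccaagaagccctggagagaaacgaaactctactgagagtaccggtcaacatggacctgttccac
The interferon core occurred in 22 of the 42 promoters found for the tested interferon genes (52.4%) and in 14 of the 27 found for those that passed (51.9%), compared with 364 of 11722 promoters of all genes tested (3.11%) and 1131 of 32851 in the table (3.44%). A match is a description of these letters, not a site or a cause.

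Irf9 (GRCm38, chromosome 14, 55603985 to 55610030) stood at 7.54 and 5.55 CPM in EV GM, 132 and 112 CPM in EV DM, 3.83 and 3.76 CPM in MUNC GM and 9.68 and 6.93 CPM in MUNC DM. Only the EV DM libraries were above 100 CPM, and the MUNC DM libraries reached the range of EV GM and little above it. Its log2 rise was 4.22 in EV and 1.12 in MUNC cells, both past the test, and the interaction was -3.09 ± 0.25 (adjusted p = 0.000149). Oas3 stood at 0.4204 and 0.343, 296 and 339, 0.317 and 0.235 and 0.53 and 0.268 CPM in the same order of groups, so that it was far higher in the EV DM libraries than in any other. The interaction of Oas3 was -9.26 ± 0.94 (adjusted p = 0.000408).

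Dhx58, an RNA-binding regulator of the RIG-I-like sensors (GRCm38, chromosome 11, 100694884 to 100704271), had the smallest adjusted p of all genes. It stood at 1.07 and 1.37 CPM in EV GM, 147 and 153 CPM in EV DM, 0.3801 and 0.542 CPM in MUNC GM and 1.18 and 1.03 CPM in MUNC DM. The 2 libraries of each group lay close together, and the MUNC DM libraries did not exceed the higher EV GM library. In GM both MUNC libraries already lay below both EV libraries. The log2 interaction was -5.68 ± 0.28 (adjusted p = 5.49e-06), from a rise of 6.94 in EV and of 1.26 in MUNC cells. Of 4 sensors of RNA or DNA in the list, grouped by role after their values were known, 2 passed, both negative (2.09% of all genes). Their median interaction was -4.30 over all 4.

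Among other genes of the interferon list, Oas1b, of the oligoadenylate synthetase family, stood at 0.4204 and 0.439 CPM in EV GM, 25.5 and 31.8 CPM in EV DM, 0.491 and 0.235 CPM in MUNC GM and 0.353 and 0.297 CPM in MUNC DM (interaction -6.25 ± 0.44, adjusted p = 8.84e-05). Mx1, of the family of dynamin-like GTPases, stood at 0.259 and 0.324, 75.1 and 92.2, 0.269 and 0.343 and 0.373 and 0.2296 CPM (interaction -8.24 ± 0.63, adjusted p = 0.000148). Neither gene passed the test of DM against GM in MUNC cells (log2 change -0.19 and -0.08, adjusted p = 0.675 and 0.911). By role, 4 of 7 oligoadenylate synthetases passed (median -9.26) and 3 of 4 IFIT genes, whose proteins bind foreign RNA (median -4.95). Of 9 Mx, GBP and immunity-related GTPases 8 passed (median -6.82). All these calls were negative, where 2.09% of all genes passed in that direction. All 20 genes of these roles rose from GM to DM in EV cells (19.2% of all genes), where their medians were 9.28, 7.22 and 8.16. In MUNC cells 1, 3 and 5 of them rose (20.5% of all genes).

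The ISG15 pathway attaches a ubiquitin-like protein to newly made proteins. Its 4 listed genes all passed with a negative interaction (2.09% of all genes), with a median of -4.11. Isg15 stood at 11.6 and 5.36 CPM in EV GM, 633 and 774 CPM in EV DM, 0.538 and 0.271 CPM in MUNC GM and 4.91 and 5.92 CPM in MUNC DM. It was lower with MUNC in both media, by 4.37 in GM and 7.02 in DM on the log2 scale, and the interaction of -2.65 ± 0.61 (adjusted p = 0.0411) had the largest adjusted p of the 37. That call was lost without EV GM replicate 2 (0.108), EV DM replicate 1 (0.0508), EV DM replicate 2 (0.109), MUNC GM replicate 1 (0.299), MUNC DM replicate 1 (0.134) or MUNC DM replicate 2 (0.102), and with the 8 WT-labelled libraries alone (0.0596). Usp18, the protease that removes ISG15 and damps interferon receptor signalling, stood at 0.356 and 0.172, 395 and 448, 0.09503 and 0.0181 and 0.275 and 0.0383 CPM (interaction -9.55 ± 1.60, adjusted p = 0.00846), a call lost without MUNC GM replicate 1 (0.392). Of 5 antigen presentation genes 3 passed, all negative (2.09% of all genes). Their median was -3.97 over all 5, or -4.69 with groups at 0 counts set to a floor of 3 counts over the group. Cxcl10, a chemokine induced by interferon, stood at 9.54 and 8.16, 66.3 and 121, 0.0475 and 0.126 and 0.589 and 0.565 CPM. It was lower with MUNC by 6.67 in GM and 7.35 in DM, so that its interaction of -0.67 ± 0.94 did not pass (adjusted p = 0.81), except with limma on log2(TPM + 1) (0.016).

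**Figure D2:**
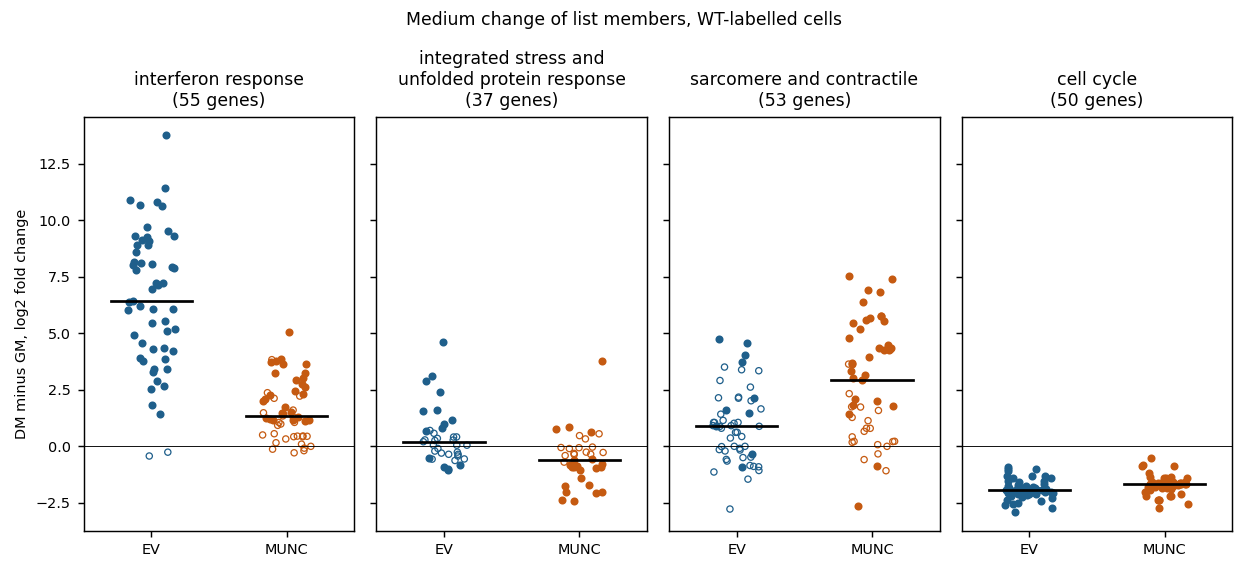
Log2 change from GM to DM in EV and in MUNC cells for the members of 4 gene lists, each point 1 gene, filled where the change passed the test and open where it did not, with the list's median as a black line. The interferon genes have medians of 6.44 in EV and 1.34 in MUNC cells, the sarcomere genes 0.89 and 2.92, and all 50 cell cycle genes are below 0 in both.

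The count of 37 interferon genes was 20 without MUNC GM replicate 1 and between 31 and 38 without any other WT-labelled library. In bulk RNA, fewer cells of a type and less RNA per cell cannot be told apart. The summed level of the 10 leukocyte markers tested, of 18 listed, was also highest in EV DM. It was 31.5 to 34.4 CPM in EV GM, 68.1 to 68.6 in EV DM, 18.5 to 24.5 in MUNC GM and 24.6 to 26.5 in MUNC DM. The macrophage marker Adgre1 had 0 counts in all 8 libraries, and 9 of the 18 markers stayed under 0.5 CPM in every library. Of the 10 that could be tested both EV DM libraries lay above the other 6 for 4, and Cd53 and Cd74 reached 21.9 and 17.6 CPM. In the interaction 1 of the 10 passed, with a negative sign (2.09% of all genes), a call lost without any library but EV DM replicate 1, and the part of leukocyte markers in the interferon result was not tested.

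Among the other genes with a negative interaction, Phf11d, an interferon-inducible gene of the Phf11 cluster, stood at 0.614 and 0.229 CPM in EV GM, 522 and 429.6 CPM in EV DM, 0.602 and 0.163 CPM in MUNC GM and 1.001 and 0.478 CPM in MUNC DM (interaction -9.26 ± 0.88, adjusted p = 0.000315). Gm12250, a predicted immunity-related GTPase gene, stood at 0.226 and 0.229, 138 and 109, 0.111 and 0.108 and 0.216 and 0.153 CPM (interaction -8.39 ± 0.88, adjusted p = 0.000527). In both, the EV DM libraries stood apart from the other 6, which were all at about 1 CPM or less. Oas, Gbp, Phf11, Ly6 and H2 genes have close paralogs, between which fragments could have been divided.

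Genes of the integrated stress response, in which a block of translation initiation raises ATF4 and its targets, also diverged in DM. Of 37 genes of this and the unfolded protein response, 4 passed with a negative interaction (2.09% of all genes), and 0 with a positive one. The median interaction was -0.69, and 33 of the 37 were negative. With MUNC, 21 were lower in DM and 1 was higher (17.7% and 15.6% of all genes), whereas 2 were higher and 0 lower in GM (6.04% and 7.71%). From GM to DM, 10 rose and 5 fell in EV cells (19.2% and 18.3% of all genes), and 4 rose and 19 fell in MUNC cells (20.5% and 19.2%).

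Ddit3, which encodes the transcription factor CHOP (GRCm38, chromosome 10, 127290793 to 127296291), stood at 24.8 and 24.8 CPM in EV GM, 182 and 248 CPM in EV DM, 32.6 and 32.96 CPM in MUNC GM and 25.9 and 38.1 CPM in MUNC DM. Both EV DM libraries lay above the other 6, while the MUNC DM libraries spanned those of MUNC GM and lay above those of EV GM by little. The interaction was -3.15 ± 0.33 (adjusted p = 0.000527), a rise of 3.11 in EV cells against a change of -0.03 in MUNC cells that did not pass (adjusted p = 0.928). Chac1, a glutathione-degrading enzyme induced by ATF4, stood at 35.8 and 34.8, 72.96 and 134, 38.96 and 36.5 and 8.15 and 20.3 CPM. It rose by 1.55 in EV cells and fell by 1.40 in MUNC cells on the log2 scale, and the interaction of -2.95 ± 0.56 (adjusted p = 0.0163) was lost without EV GM replicate 1 (0.0571), EV GM replicate 2 (0.0811), EV DM replicate 2 (0.0617) or MUNC GM replicate 1 (0.0577).

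Asns, asparagine synthetase, moved in another way. It stood at 313 and 217 CPM in EV GM, 224 and 325 CPM in EV DM, 185 and 115 CPM in MUNC GM and 30.3 and 43.5 CPM in MUNC DM, so that the MUNC DM libraries were the lowest and the EV groups overlapped. It fell by 2.02 in MUNC cells and did not pass in EV cells (log2 change 0.05, adjusted p = 0.919). The interaction was -2.07 ± 0.46 (adjusted p = 0.0331), a call lost without EV GM replicate 2 (0.155), EV DM replicate 2 (0.113), MUNC GM replicate 1 (0.137), MUNC DM replicate 1 (0.136) or MUNC DM replicate 2 (0.0602). Phgdh, the first enzyme of serine synthesis, was also lowest in MUNC DM, at 458 and 512, 238 and 417, 393 and 434 and 62.8 and 94.8 CPM in the same order of groups. Its interaction was -1.83 ± 0.39 (adjusted p = 0.0298), a call lost without EV GM replicate 1 (0.0915), EV GM replicate 2 (0.0978), EV DM replicate 2 (0.0978), MUNC GM replicate 1 (0.081), MUNC GM replicate 2 (0.0806) or MUNC DM replicate 1 (0.121), and with the 8 WT-labelled libraries alone (0.056). Of 10 genes of amino acid synthesis and transport and one-carbon enzymes, 7 were lower with MUNC in DM (17.7% of all genes). From GM to DM 8 of these 10 fell in MUNC cells (19.2% of all genes). The interaction test passed for 2 of them, both negative (2.09% of all genes). Of 11 chaperones and folding enzymes of the endoplasmic reticulum 6 were lower with MUNC in DM and 8 fell in MUNC cells, with 0 past the interaction test in edgeR and 3 at an unadjusted p under 0.05. The list's count of 4 was 2 without EV GM replicate 1, 1 without EV GM replicate 2, 12 without EV DM replicate 1, 1 without EV DM replicate 2, 1 without MUNC GM replicate 1 and 2 without MUNC DM replicate 1. DESeq2 gave 13 and limma on log2(TPM + 1) 8, all negative.

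Myc, a transcription factor of growth and proliferation, stood at 69.9 and 73.3 CPM in EV GM, 49.6 and 91.4 CPM in EV DM, 71.7 and 69.7 CPM in MUNC GM and 17.8 and 20.4 CPM in MUNC DM. It was lowest in the MUNC DM libraries, with the other 3 groups overlapping, and its interaction was -1.87 ± 0.37 (adjusted p = 0.0195). The call was lost without EV GM replicate 1 (0.064), EV GM replicate 2 (0.0787), MUNC GM replicate 1 (0.0691), MUNC DM replicate 1 (0.0885) or MUNC DM replicate 2 (0.0599). Of 26 immediate early and heat shock genes 3 passed with a negative interaction (2.09% of all genes), with a list median of 0.13. The 3 became 2 without EV DM replicate 1, 1 without either EV GM library, EV DM replicate 2 or MUNC GM replicate 2, and 0 without MUNC GM replicate 1 or either MUNC DM library, and DESeq2 gave 3 in each direction.

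Several genes for surface, secreted and cytoskeletal proteins also rose mainly in EV DM. Ly6a, which encodes the progenitor surface antigen Sca-1, stood at 59.2 and 54.4 CPM in EV GM, 2009 and 1984 CPM in EV DM, 48.2 and 34.7 CPM in MUNC GM and 60.1 and 108 CPM in MUNC DM (interaction -4.12 ± 0.64, adjusted p = 0.00567). Its rise of 5.14 in EV cells passed and that of 1.02 in MUNC cells did not (adjusted p = 0.0904). Ly6a was listed as a fibroblast-like marker, and of 13 such markers tested 1 passed with a negative and 2 with a positive interaction (2.09% and 1.24% of all genes). The 2 positive ones became 1 without any library but EV DM replicate 1 or MUNC DM replicate 2, and 5 with DESeq2. The summed level of the 13 fibroblast-like markers tested was 2013 to 2140 CPM in EV GM, 3252 to 3388 in EV DM, 2968 to 3020 in MUNC GM and 4226 to 4598 in MUNC DM. Of the 15 listed, Tcf21 had 0 counts in all 8 libraries. The part of these markers in the result was not tested.

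Sdc3, a heparan sulphate proteoglycan of satellite cells, stood at 5.498 and 7.82 CPM in EV GM, 147 and 98.5 CPM in EV DM, 16.04 and 35.6 CPM in MUNC GM and 13.1 and 12.2 CPM in MUNC DM. With MUNC it was higher in GM and lower in DM (log2 difference 1.96 and -3.28, adjusted p = 0.0452 and 0.00171), and its interaction was -5.24 ± 0.83 (adjusted p = 0.00601). Tnfsf10, the death ligand TRAIL, stood at 0.4204 and 0.744, 10.3 and 9.65, 0.649 and 0.451 and 0.53 and 0.459 CPM (interaction -4.27 ± 0.61, adjusted p = 0.00337), above 1 CPM only in EV DM. Krt8, an epithelial keratin, stood at 1.97 and 0.687, 16.6 and 12.1, 0.491 and 0.343 and 0.393 and 0.459 CPM. Its interaction of -3.39 ± 0.66 (adjusted p = 0.019) was lost without MUNC GM replicate 1 (0.0999), MUNC DM replicate 1 (0.0808) or MUNC DM replicate 2 (0.0728). The summed level of the 10 epithelial markers tested, of 17 listed, lay between 8.01 and 28.4 CPM over the 8 libraries and was lowest in MUNC DM. Of those listed, Epcam and Krt20 had 0 counts in all 8 libraries. The part of the epithelial markers in the result was not tested.

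**Figure D3:**
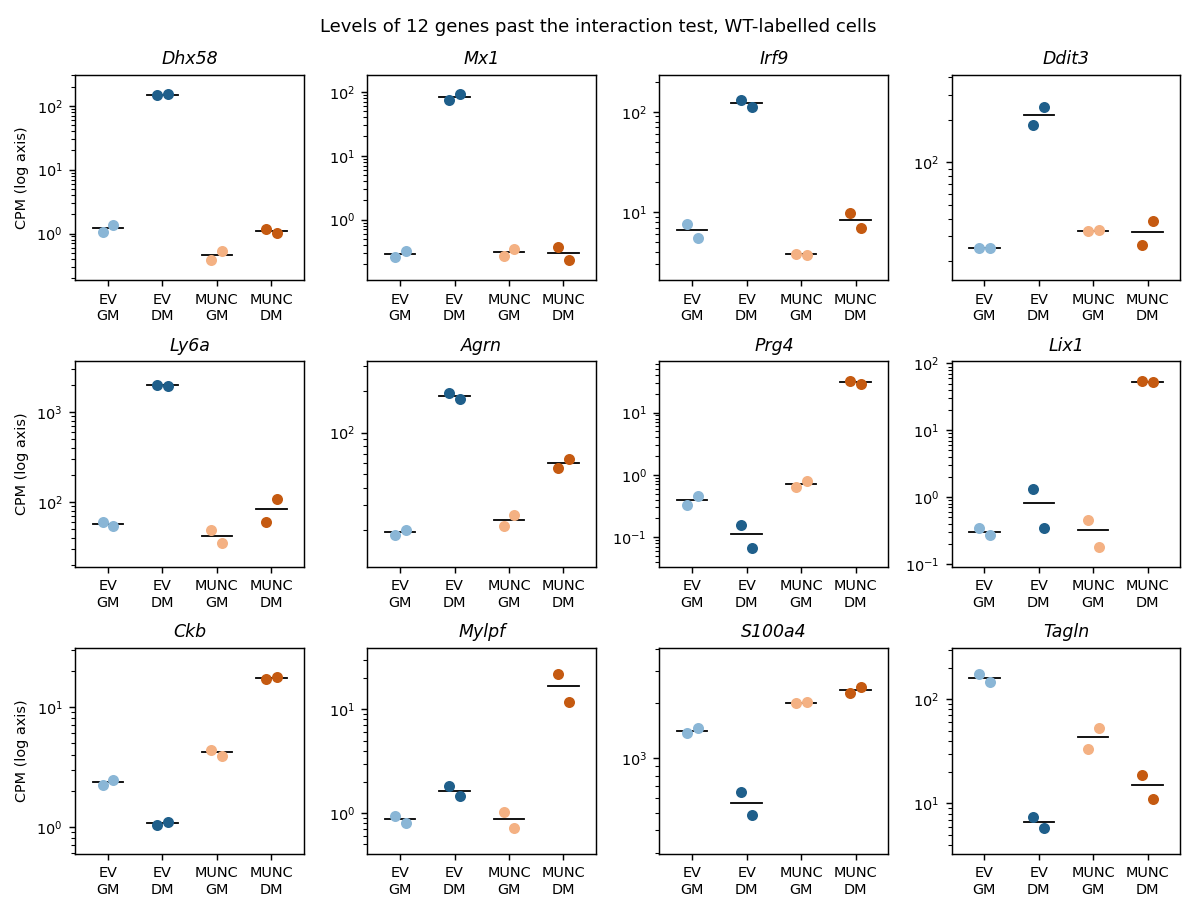
TMM-scaled CPM (log axis) of 12 genes past the interaction test in the 4 WT-labelled groups, each point 1 library and each black line the mean of 2. Dhx58, Mx1, Irf9, Ddit3, Ly6a and Agrn stand highest in EV DM, Prg4, Lix1, Ckb, Mylpf and S100a4 in MUNC DM, and Tagln is lowest in EV DM.

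Agrn, the proteoglycan that organises the neuromuscular synapse, differed in degree. It stood at 18.3 and 19.97 CPM in EV GM, 193 and 174 CPM in EV DM, 21.3 and 25.7 CPM in MUNC GM and 55.6 and 64.96 CPM in MUNC DM, so that both DM groups lay above both GM groups and EV DM above MUNC DM. Its log2 rise was 3.26 in EV and 1.36 in MUNC cells, and the interaction was -1.90 ± 0.24 (adjusted p = 0.00149).

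Among the largest positive interactions were transcripts that, of the 4 WT-labelled groups, stood far higher in MUNC DM. Prg4, which encodes the lubricating proteoglycan lubricin (GRCm38, chromosome 1, 150449412 to 150466221), stood at 0.323 and 0.458 CPM in EV GM, 0.154 and 0.0679 CPM in EV DM, 0.649 and 0.795 CPM in MUNC GM and 32.6 and 28.7 CPM in MUNC DM. It fell by 1.76 in EV cells and rose by 5.41 in MUNC cells on the log2 scale (interaction 7.17 ± 0.69, adjusted p = 0.000315). Lix1, a regulator of mesenchymal progenitors in the chick, stood at 0.3396 and 0.267, 1.32 and 0.339, 0.459 and 0.181 and 53.8 and 52.2 CPM (interaction 5.89 ± 0.89, adjusted p = 0.00477). Itga10, the alpha-10 subunit of a collagen-binding integrin, stood at 1.79 and 1.697, 3.904 and 2.37, 2.03 and 1.26 and 47.6 and 30.2 CPM (interaction 3.71 ± 0.52, adjusted p = 0.00325). In all 3 genes the MUNC DM libraries lay above the other 6, and the vector difference in GM did not pass. In the knockout-labelled cells Itga10 and Lix1 were high in DM with either vector: Itga10 stood at 72.97 ± 1.77 CPM in EV DM and 70.1 ± 20.3 CPM in MUNC DM, and Lix1 at 19.9 ± 2.69 and 14.2 ± 3.88 CPM (mean ± SD, n = 2). Prg4 stood at 1.09 ± 0.304 and 1.04 ± 0.68 CPM there.

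In another set the MUNC cells were already higher in GM. Gpr153, an orphan receptor gene, stood at 0.09702 and 0.0191 CPM in EV GM, 0.0439 and 0.0136 CPM in EV DM, 1.92 and 1.35 CPM in MUNC GM and 30.3 and 29.5 CPM in MUNC DM, and Ctsf, a lysosomal cysteine protease, at 0.09702 and 0.0572, 0.0548 and 0.0136, 1.14 and 1.23 and 10.3 and 8.92 CPM. All 4 MUNC libraries lay above all 4 EV libraries for both. Their interactions were 5.15 ± 0.95 (adjusted p = 0.0149) and 4.10 ± 0.64 (adjusted p = 0.00577), and both calls were lost without EV GM replicate 1 (0.399 and 0.0893).

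In further genes the EV cells fell where the MUNC cells rose or did not pass the test. Ckb, the brain isoform of creatine kinase, stood at 2.25 and 2.44 CPM in EV GM, 1.03 and 1.099 CPM in EV DM, 4.403 and 3.92 CPM in MUNC GM and 17.02 and 17.8 CPM in MUNC DM, a fall of 1.14 in EV cells against a rise of 2.06 in MUNC cells (interaction 3.20 ± 0.37, adjusted p = 0.000954). Cxcr4, the receptor of the chemokine CXCL12, stood at 0.501 and 1.05, 0.164 and 0.217, 1.25 and 2.35 and 5.83 and 5.63 CPM (interaction 3.68 ± 0.61, adjusted p = 0.00835). S100a4, a calcium-binding protein of motile cells, stood at 1379 and 1455, 651 and 483, 1999 and 2038 and 2278 and 2474 CPM, highest in MUNC DM and lowest in EV DM (interaction 1.56 ± 0.22, adjusted p = 0.00291). Ccnb1ip1, a ubiquitin ligase gene known for its role in meiosis, showed yet another order, at 33.2 and 39.1 CPM in EV GM, 1.88 and 3.81 CPM in EV DM, 0.554 and 0.433 CPM in MUNC GM and 0.883 and 0.421 CPM in MUNC DM. It was low in all 4 MUNC libraries and fell by 3.67 in EV cells, which gave a positive interaction of 4.02 ± 0.58 (adjusted p = 0.0035) without a rise in MUNC cells.

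Zim1, an imprinted zinc finger gene, stood at 0.404 and 0.305 CPM in EV GM, 0.252 and 0.0543 CPM in EV DM, 0.301 and 0.0542 CPM in MUNC GM and 20.3 and 9.13 CPM in MUNC DM. Its interaction of 7.48 ± 1.40 (adjusted p = 0.0155) was lost without EV GM replicate 1 (0.0546), EV DM replicate 2 (0.0642), MUNC GM replicate 2 (0.0537) or MUNC DM replicate 1 (0.0618). Igf2, an imprinted growth factor, stood at 1.76 and 0.2098, 19.3 and 4.08, 1.25 and 0.0722 and 149 and 83.2 CPM. It was highest in MUNC DM, but its replicates lay far apart, and the interaction of 3.88 ± 1.60 did not pass (adjusted p = 0.24), while limma on log2(TPM + 1) gave 0.0162. Of 20 imprinted genes 1 passed in each direction (1.24% of all genes higher and 2.09% lower), with a list median of 0.01 (0.04 with groups at 0 counts set to the floor). Without EV GM replicate 1, EV DM replicate 2, MUNC GM replicate 2 or MUNC DM replicate 1 neither direction had a call, without EV DM replicate 1 there were 2 higher, and without MUNC GM replicate 1 or MUNC DM replicate 2 there was 0 lower. DESeq2 gave 3 higher and limma 4, each with 1 lower.

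Sarcomere and contractile genes often stood highest in MUNC DM, but 5 passed the test of the interaction itself. Of 53 tested (66 listed), 5 passed with a positive interaction and 0 with a negative one (1.24% and 2.09% of all genes), 45 were positive, and the median was 1.40. From GM to DM 8 rose and 2 fell in EV cells (19.2% and 18.3% of all genes, median 0.89), and 31 rose and 2 fell in MUNC cells (20.5% and 19.2%, median 2.92). With MUNC 19 were higher and 1 lower in DM (15.6% and 17.7% of all genes), and 1 was higher and 1 lower in GM (6.04% and 7.71%). In 28 of the 53 both MUNC DM libraries lay above the other 6. Under 1 CPM in both libraries were 40 of the 53 genes in EV GM, 35 in EV DM, 40 in MUNC GM and 23 in MUNC DM. Many of these changes and medians therefore rest on low counts. Myod1 itself was higher in MUNC than in EV cells in both media, at the levels given above, and its part in these changes was not tested. Mylpf and Myh3 are shown by sequence because they were the 2 members named here with the smallest adjusted p whose promoters the table held. The Mylpf promoter (chr7:127211358-127211657, plus strand) holds CAGCTG once, 51 bases before the start, in capitals, and the Myh3 promoter (chr11:67078050-67078349, plus strand) holds none of the 3 motifs.
Mylpf: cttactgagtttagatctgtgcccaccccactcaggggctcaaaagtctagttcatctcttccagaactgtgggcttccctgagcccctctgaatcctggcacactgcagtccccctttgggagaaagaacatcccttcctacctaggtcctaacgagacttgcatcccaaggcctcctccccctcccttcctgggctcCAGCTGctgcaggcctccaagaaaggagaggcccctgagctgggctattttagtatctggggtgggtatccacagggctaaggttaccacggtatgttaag
Myh3: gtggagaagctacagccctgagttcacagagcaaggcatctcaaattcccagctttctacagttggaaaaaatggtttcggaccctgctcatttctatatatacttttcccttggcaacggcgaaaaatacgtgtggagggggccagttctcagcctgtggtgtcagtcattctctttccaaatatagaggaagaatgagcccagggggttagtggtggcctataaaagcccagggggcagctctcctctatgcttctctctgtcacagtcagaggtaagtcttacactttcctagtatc
CAGCTG, which reads the same on both strands, occurred in 19 of 43 promoters found for the tested sarcomere genes (44.2%) and in 15.5% of the 11722 promoters of all genes tested.

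Mylpf, the fast skeletal regulatory light chain of myosin, stood at 0.938 and 0.801 CPM in EV GM, 1.83 and 1.45 CPM in EV DM, 1.03 and 0.722 CPM in MUNC GM and 21.8 and 11.8 CPM in MUNC DM. The MUNC DM libraries lay above the other 6, replicate 1 well above replicate 2. The interaction was 3.33 ± 0.48 (adjusted p = 0.0036), from a rise of 4.25 in MUNC cells and a change of 0.92 in EV cells that did not pass (adjusted p = 0.0552). Mylk2, the skeletal myosin light chain kinase, stood at 0.566 and 0.591, 0.395 and 0.339, 0.269 and 0.325 and 0.942 and 1.1 CPM. Its interaction of 2.43 ± 0.42 (adjusted p = 0.00985) was lost without EV DM replicate 2 (0.0505) or MUNC GM replicate 1 (0.0626).

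Myh3, the embryonic myosin heavy chain, stood at 0.275 and 0.191 CPM in EV GM, 0.932 and 0.543 CPM in EV DM, 0.158 and 0.0542 CPM in MUNC GM and 33.2 and 7.903 CPM in MUNC DM. Both MUNC DM libraries were above all others, but replicate 1 was several times replicate 2. The interaction of 5.87 ± 1.14 (adjusted p = 0.0186) was lost without EV GM replicate 1 (0.114), EV GM replicate 2 (0.0702), EV DM replicate 2 (0.0553), MUNC GM replicate 1 (0.0523) or MUNC GM replicate 2 (0.0606), and with the 8 WT-labelled libraries alone (0.054). Neb, the giant thin filament protein nebulin, stood at 0.356 and 0.534, 0.526 and 0.231, 0.364 and 0.7404 and 6.07 and 2.91 CPM. Its interaction of 3.22 ± 0.65 (adjusted p = 0.0218) was lost without EV GM replicate 2 (0.112), EV DM replicate 2 (0.076), MUNC GM replicate 1 (0.092) or MUNC DM replicate 1 (0.0807), with the 8 WT-labelled libraries alone (0.0959) and with limma on log2(TPM + 1) (0.0881). Acta1, skeletal muscle actin, stood at 5.26 and 4.88, 1.24 and 0.204, 1.39 and 11.6 and 33.9 and 9.42 CPM. Its 2 MUNC GM libraries differed several fold, and the interaction of 4.51 ± 1.42 did not pass (adjusted p = 0.118), though it did with DESeq2 (0.0413) and without MUNC GM replicate 2 (0.0483).

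By role, 2 of 7 myosin chains passed in edgeR (median 3.33) and 1 of 8 troponin subunits (median 1.19), all positive (1.24% of all genes). Of 7 actins, alpha-actinins and tropomyosins 0 passed in edgeR (median 1.28, 4 at an unadjusted p under 0.05). The summed level of the 7 myosin chains was 25.1 and 66.6 CPM in the MUNC DM libraries and between 1.97 and 5.03 CPM in the other 6. The 8 troponin subunits summed to 34.9 and 57.5 CPM in MUNC DM and overlapped EV DM, at 21.4 and 52.8 CPM. The 7 actins, alpha-actinins and tropomyosins summed to 1557 and 1616 CPM in MUNC DM, between the 1207 and 1895 CPM of EV DM and below the 2116 and 2510 CPM of MUNC GM. The 53 list members tested summed to 1802 and 1811 CPM in MUNC DM, below both GM groups (2186 to 2992 CPM). The list's count of 5 was 2 without EV GM replicate 2, 1 without EV DM replicate 2, 1 without MUNC GM replicate 1 and 3 without MUNC DM replicate 1, and 3 with the 8 WT-labelled libraries alone. DESeq2 gave 8 higher and 1 lower.

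In the list for the neuromuscular junction and excitation-contraction coupling 2 of 33 genes passed in each direction (1.24% of all genes higher and 2.09% lower, median 0.53). The 2 higher became 1 without any library but MUNC DM replicate 2, and the 2 lower became 1 without EV GM replicate 2, EV DM replicate 2 or any 1 MUNC library. Ryr1, the calcium release channel of the sarcoplasmic reticulum, stood at 0.226 and 0.229 CPM in EV GM, 1.12 and 0.977 CPM in EV DM, 0.111 and 0.0181 CPM in MUNC GM and 4.44 and 2.899 CPM in MUNC DM. It rose in both cell populations, by 2.19 in EV and 5.73 in MUNC cells on the log2 scale, and the interaction was 3.53 ± 0.59 (adjusted p = 0.00851). That call did not hold with the 8 WT-labelled libraries alone (0.0613) or with limma on log2(TPM + 1) (0.0529). Chrna1, which encodes an acetylcholine receptor subunit of the endplate, stood at 14.3 and 3.07, 71.2 and 66.5, 86.4 and 40.6 and 223 and 263 CPM. It was higher with MUNC in both media (log2 difference 2.87 in GM and 1.82 in DM), and the interaction of -1.05 ± 0.75 did not pass (adjusted p = 0.554), except without EV GM replicate 1 (0.0418).

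Myogenic regulators, the transcription factors that start the muscle programme, had 0 of 19 genes past the interaction test in edgeR (median 0.03, 3 at an unadjusted p under 0.05, 0 in DESeq2 and 1 with limma), although 7 were higher with MUNC in DM (15.6% of all genes) and 3 in GM (6.04%). Myog, the factor of terminal differentiation, stood at 0.0485 and 0.0191 CPM in EV GM, 1.16 and 0.733 CPM in EV DM, 0.111 and 0.0361 CPM in MUNC GM and 7.91 and 8.14 CPM in MUNC DM. It rose by 4.69 in EV and 6.70 in MUNC cells, and the interaction of 2.002 ± 1.59 did not pass (adjusted p = 0.608), except with limma on log2(TPM + 1) (0.000873). Mef2c had 49 counts in all 16 libraries together and was not tested. Ckm, the muscle isoform of creatine kinase, stood at 0.0485 and 0.0191, 0.285 and 0.0136, 0.0634 and 0.0542 and 3.79 and 1.22 CPM, with an interaction of 3.25 ± 1.81 that did not pass (adjusted p = 0.412), except with limma on log2(TPM + 1) (0.0391). In the muscle metabolism list 2 of 23 genes passed, both with a positive interaction (1.24% of all genes, median 0.42), Ckb among them, and 1 without any library but MUNC DM replicate 2. Of 22 myoblast fusion genes 0 passed in edgeR (median 0.46, or 0.48 with groups at 0 counts set to the floor), 3 at an unadjusted p under 0.05, 2 in DESeq2 and 4 with limma. Dysf, which reseals the muscle membrane, stood at 0.129 and 0.248, 0.263 and 0.231, 2.71 and 3.95 and 12.8 and 15.4 CPM, far higher in all 4 MUNC libraries, with an interaction of 1.67 ± 0.43 (adjusted p = 0.0599) that passed with DESeq2 (0.0219), limma (0.000176), without EV GM replicate 1 (0.0393) and without MUNC GM replicate 2 (0.0495).

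Some genes of TGF-beta signalling and smooth muscle reached their lowest level in EV DM. Of 31 genes 15 fell and 0 rose from GM to DM in EV cells (18.3% and 19.2% of all genes), and in MUNC cells 8 fell and 4 rose (19.2% and 20.5%). With MUNC 10 were higher and 0 lower in DM (15.6% and 17.7% of all genes). In the interaction 2 passed, both positive (1.24% of all genes), and the median was 0.48. Lmod1, a leiomodin that nucleates actin filaments in smooth muscle, is shown by sequence as the 1 of these 2 genes whose promoter the table held. That promoter (chr1:135324563-135324862, plus strand) holds CAGCTG once, 45 bases before the start, in capitals, and no CArG box.
Lmod1: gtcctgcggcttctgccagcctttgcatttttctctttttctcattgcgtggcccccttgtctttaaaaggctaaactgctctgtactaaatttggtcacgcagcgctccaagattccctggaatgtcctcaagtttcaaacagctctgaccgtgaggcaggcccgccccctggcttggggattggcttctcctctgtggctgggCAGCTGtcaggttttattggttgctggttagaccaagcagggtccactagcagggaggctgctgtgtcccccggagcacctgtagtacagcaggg
The CArG box occurred in 4 of 21 promoters found for the listed genes (19%) and in 1.39% of those of all genes tested.

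Tagln, the actin-binding protein transgelin, stood at 174 and 148 CPM in EV GM, 7.41 and 5.85 CPM in EV DM, 33.6 and 52.6 CPM in MUNC GM and 18.8 and 11.1 CPM in MUNC DM. It fell by 4.60 in EV and 1.53 in MUNC cells on the log2 scale, and the order of the vectors turned with the medium, since EV lay above MUNC in GM and below it in DM. The interaction was 3.07 ± 0.54 (adjusted p = 0.0106), lost without EV DM replicate 2 (0.0605), MUNC GM replicate 1 (0.0585) or MUNC DM replicate 1 (0.0524). Lmod1 stood at 1.05 and 1.24, 0.1097 and 0.149, 0.713 and 1.48 and 0.883 and 1.26 CPM, so that it fell by 3.14 in EV cells and did not pass in MUNC cells (log2 change -0.02, adjusted p = 0.98). Its interaction of 3.12 ± 0.59 (adjusted p = 0.0162) was lost without EV GM replicate 2 (0.066), EV DM replicate 1 (0.0617), EV DM replicate 2 (0.0546), MUNC GM replicate 1 (0.0565) or MUNC DM replicate 2 (0.0689), with the 8 WT-labelled libraries alone (0.0544) and with limma on log2(TPM + 1) (0.05003). Acta2, smooth muscle actin, stood at 1371 and 1451, 318 and 219, 1144 and 2303 and 1292 and 1129 CPM, lowest in EV DM, with an interaction of 1.88 ± 0.70 that did not pass (adjusted p = 0.184). Id3, an inhibitor of myogenic factors, stood at 13.3 and 97.3, 1.52 and 1.97, 32.8 and 122 and 60.6 and 63.4 CPM. It too was lowest in EV DM, but its GM replicates differed several fold, and the interaction of 4.66 ± 1.36 did not pass (adjusted p = 0.0953), while DESeq2 gave 0.0177 and leaving out EV GM replicate 1 gave 0.0454. Cnn1, smooth muscle calponin, went another way, with counts of 181 and 63, 28 and 8, 9 and 11 and 5 and 2. It was lowest in MUNC DM, and its interaction of 1.52 did not pass (adjusted p = 0.592). The list's count of 2 was 1 without EV GM replicate 2, EV DM replicate 1 or either MUNC DM library, and 0 without EV DM replicate 2 or MUNC GM replicate 1, and 6 with DESeq2.

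Of 44 interstitial collagens and matrix genes 2 passed, both positive (1.24% of all genes, median 0.76), and 12 were higher and 2 lower with MUNC in DM (15.6% and 17.7% of all genes). Of 24 genes of the basement membrane and integrins 2 passed, both positive (1.24% of all genes, median 0.21). With MUNC 10 of these 24 were higher and 4 lower in DM (15.6% and 17.7% of all genes). The 2 matrix genes became 3 without EV DM replicate 1 and 0 without any other library, 5 with DESeq2 and 4 with limma. The 2 basement membrane genes became 1 without EV GM replicate 1 or MUNC GM replicate 2, 1 in each direction without EV DM replicate 1 and 0 without any of the other 5 libraries, and DESeq2 gave 5 higher and 1 lower. Col16a1, a fibril-associated collagen, stood at 62.6 and 46.3 CPM in EV GM, 71.4 and 43.05 CPM in EV DM, 59.9 and 49.9 CPM in MUNC GM and 157 and 191 CPM in MUNC DM, with the MUNC DM libraries above the other 6. Its interaction of 1.59 ± 0.36 (adjusted p = 0.0375) was lost without EV GM replicate 1 (0.11), EV GM replicate 2 (0.0595), EV DM replicate 2 (0.118), MUNC GM replicate 1 (0.0936), MUNC GM replicate 2 (0.12), MUNC DM replicate 1 (0.0796) or MUNC DM replicate 2 (0.136), and with the 8 WT-labelled libraries alone (0.0805).

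Cell cycle genes fell with the change of medium under either vector. All 50 fell from GM to DM in EV and in MUNC cells (18.3% and 19.2% of all genes fell, medians -1.94 and -1.67), and 0 passed the interaction test in edgeR, DESeq2 or limma (median 0.19, 3 at an unadjusted p under 0.05). Mki67, which marks cycling cells, stood at 510 and 556 CPM in EV GM, 119 and 142 CPM in EV DM, 553 and 430.2 CPM in MUNC GM and 176 and 195 CPM in MUNC DM. The GM libraries lay above the DM libraries throughout, and the interaction of 0.62 ± 0.30 did not pass (adjusted p = 0.335).

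**Figure D4:**
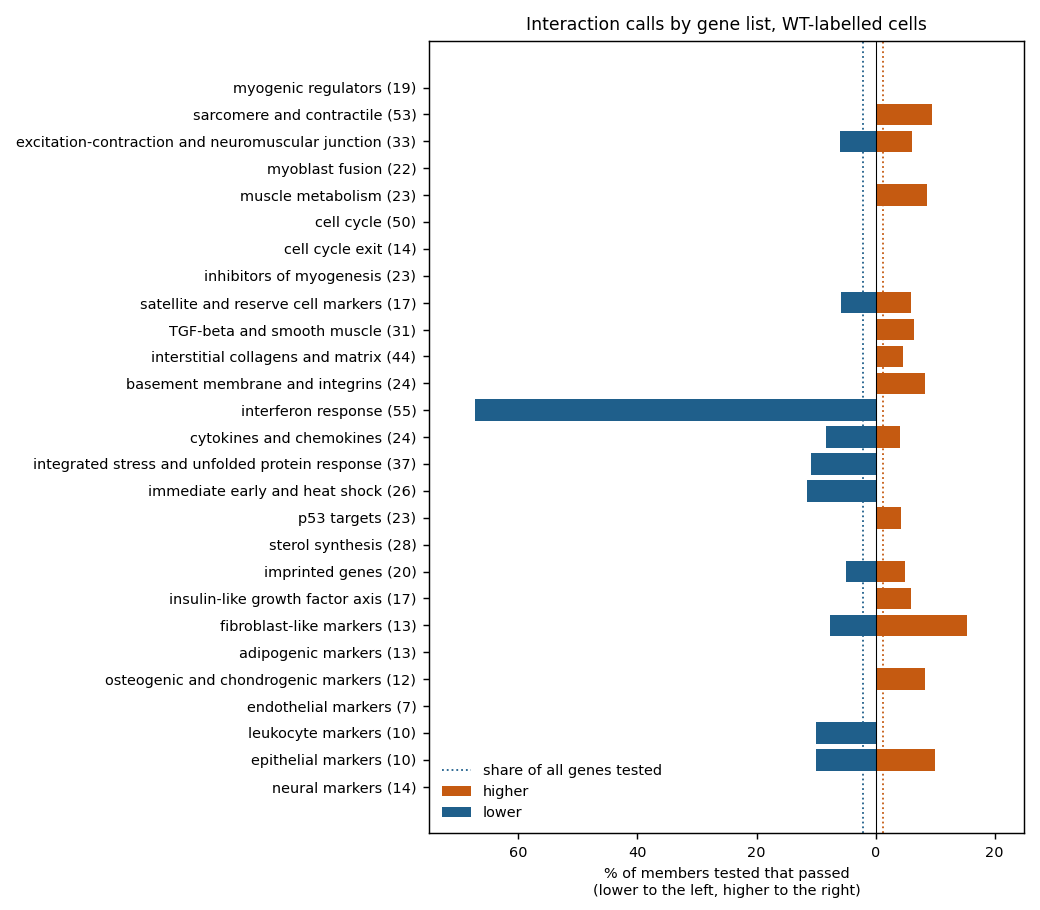
Share of the tested members of each of 27 gene lists that passed the interaction test, negative to the left and positive to the right, with the number tested in parentheses and the shares over all genes (2.09% and 1.24%) as dotted lines. Among these lists the interferon response stands furthest from its line, with 37 of 55 genes.

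Of the remaining lists, 0 genes passed among 14 of cell cycle exit, 23 inhibitors of myogenesis, 28 of sterol synthesis, 13 adipogenic, 7 endothelial and 14 neural markers in edgeR. At an unadjusted p under 0.05 these lists had 3, 2, 1, 2, 1 and 2 genes, DESeq2 called 2, 2, 0, 1, 0 and 0, and limma on log2(TPM + 1) called 0, 1, 0, 2, 1 and 1. Their medians were -0.11, 0.43, -0.17, -0.42 (-0.39 with groups at 0 counts set to the floor), 0.84 and -0.27. Satellite and reserve cell markers had 1 of 17 in each direction (Cxcr4 and Sdc3), cytokines and chemokines 1 positive and 2 negative of 24, p53 targets 1 positive of 23, the insulin-like growth factor axis 1 positive of 17, osteogenic and chondrogenic markers 1 positive of 12, and epithelial markers 1 in each direction of 10. The medians of these 6 lists were 0.73, -0.14, -0.14, 0.51, 1.06 and -1.06 (-0.86 for the epithelial markers with groups at 0 counts set to the floor). With 1 library left out, the positive count of each of these 6 lists other than the satellite markers became 0 at least once. Over all genes, 1.24% passed with a positive and 2.09% with a negative interaction.

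The same contrast in the knockout-labelled cells, where the MUNC vector gave a lower level of Gm45923 (119 ± 18.2 CPM in GM and 46.7 ± 5.25 CPM in DM, mean ± SD, n = 2), had 0 genes past the test (0%) in edgeR, 114 at an unadjusted p under 0.05, 0 in DESeq2 and 1 with limma on log2(TPM + 1). The difference between the interactions of the 2 labels was tested directly and passed for 76 genes (0.508%), 19 higher and 57 lower in the WT-labelled cells, of which 75 were among the 499. The count was 57 and 33 without EV GM replicate 1 and 2, 83 and 53 without EV DM replicate 1 and 2, 30 and 51 without MUNC GM replicate 1 and 2, and 38 and 34 without MUNC DM replicate 1 and 2. Of the 55 interferon genes 16 passed, all lower (0.381% of all genes). Dhx58 stood at 0.593 ± 0.0822, 65.6 ± 1.77, 0.707 ± 0.00667 and 50.9 ± 7.83 CPM in the knockout-labelled EV GM, EV DM, MUNC GM and MUNC DM groups, so that it stood higher in DM with either vector there. Its interaction in those cells was -0.62 ± 0.27, and the difference between the labels was -5.07 ± 0.39 (adjusted p = 0.000585). Mylpf stood at 0.849 ± 0.351, 66.7 ± 6.06, 0.925 ± 0.225 and 87.6 ± 12.5 CPM in the knockout-labelled groups, higher in both DM groups than in the WT-labelled MUNC DM libraries.

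**Figure D5:**
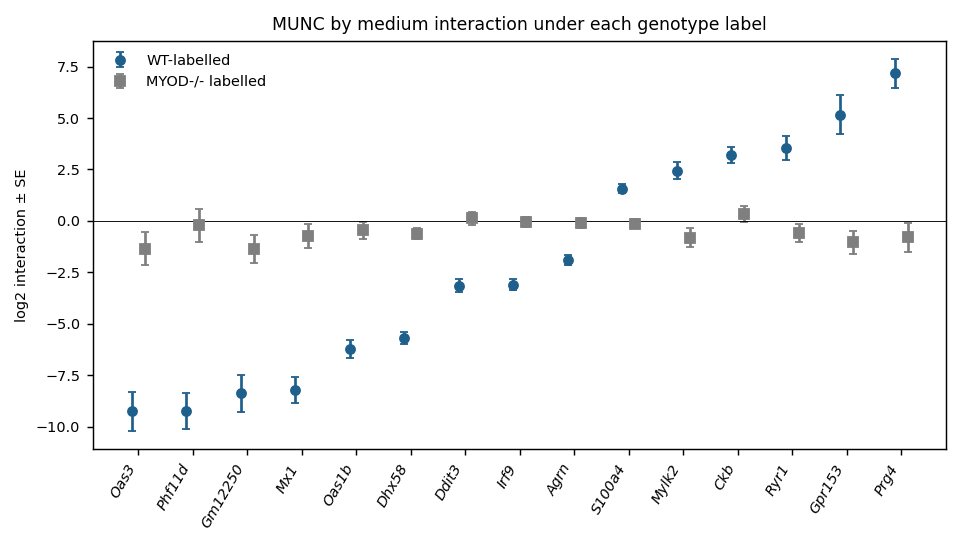
Log2 interaction of vector and medium ± SE in WT-labelled (blue) and MYOD-/- labelled (grey) cells for 15 genes named here whose interactions differed between the labels. The WT-labelled values lie between -9.26 and 7.17 and the grey ones closer to 0, as for Dhx58 with -5.68 and -0.62. The genes were chosen mainly by the WT-labelled interaction and by the difference itself, so that this contrast was largely fixed in advance.

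No label states the strand setting of the quantification, and fragments of overlapping genes could have been counted for either. Ddit3 shares 71 annotated bases with Mars1 and 77 with Mbd6, Prg4 shares 524 with Tpr, Mylpf 1580 with Septin1, Tagln 2480 with Pcsk7 and Cxcl10 2252 with Art3.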

How the data were processed

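Poly(A) RNA was prepared from 16 samples with RNeasy columns and the NEBNext Ultra Directional kit and sequenced in pairs of 75 bases on a NextSeq, per the labels' protocols. The submitters' processing notes name bcl2fastq, kallisto and the build mm10. Their versions and kallisto's strand setting are not given in the sources used. The authors deposited, per the file headers, an estimated count (expected count), an effective length and a TPM value for each of 35818 transcripts.

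Transcripts were matched to genes of RefSeq GRCm38.p6 (35492) or GENCODE M21 (188), and 138 without a symbol were left out. Estimated counts were summed over 24497 genes and rounded. edgeR 4.0.16 (R 4.3.3) fitted group means to all 16 libraries after TMM scaling and filtering by filterByExpr, with 8 residual degrees of freedom, and tested 14972 genes by the quasi-likelihood test with Benjamini-Hochberg adjustment and a threshold of 0.05. The prior count of log2 CPM was 2. The method was tested on simulated data. The labels do not say that replicates were separate cultures, so the p-values reflect the spread between the libraries at hand, which may be only technical.

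The members and the 27 gene lists were chosen with earlier results of these data known. Genes named are the 12 largest called interactions each way with a group mean of at least 5 CPM and 1 sign in both replicates, a panel, and up to 4 called members of each list (2 with the smallest p where none was called); not all are described. Groups of genes by role or family were made after the values were seen. Alternatives were DESeq2 1.42.0, its size factors, limma 3.58.1 on log2(TPM + 1), the 8 WT-labelled libraries alone, a replicate block, other filters, an effective length offset, a stricter threshold, leaving out Zrsr1 and leaving out each WT-labelled library.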

Additional observations from a re-analysis of the deposited data

Results flagged for a closer look

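The interaction of vector and medium differed between the genotype labels for 76 of 14972 genes, by a test of the difference itself (edgeR quasi-likelihood test, Benjamini-Hochberg adjustment over all genes). The 15 genes described above that passed are given here as the log2 interaction in WT-labelled minus that in MYOD-/- labelled cells.

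All 7 interferon-induced genes among them had a negative difference. The genes given here were chosen mainly by their interaction in WT-labelled cells and kept because this difference passed. Their signs were thus largely fixed in advance. The difference was -5.07 ± 0.39 for Dhx58 (adjusted p = 0.000585), -5.80 ± 0.61 for Oas1b (adjusted p = 0.0052), -7.52 ± 0.87 for Mx1 (adjusted p = 0.00647), -3.03 ± 0.35 for Irf9 (adjusted p = 0.00647) and -7.91 ± 1.25 for Oas3 (adjusted p = 0.0213). For Phf11d it was -9.04 ± 1.19 (adjusted p = 0.00824) and for Gm12250 -7.02 ± 1.13 (adjusted p = 0.023). Outside this group, it was -3.27 ± 0.46 for Ddit3 (adjusted p = 0.0112) and -1.80 ± 0.33 for Agrn (adjusted p = 0.0463).

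The difference was positive for Prg4 with 7.97 ± 0.97 (adjusted p = 0.00681), Ckb with 2.89 ± 0.53 (adjusted p = 0.0446), S100a4 with 1.70 ± 0.30 (adjusted p = 0.0384) and Gpr153 with 6.20 ± 1.10 (adjusted p = 0.0377). Among muscle genes it was 3.25 ± 0.62 for Mylk2 (adjusted p = 0.0482) and 4.13 ± 0.75 for Ryr1 (adjusted p = 0.0414). Myod1 went against the genotype labels and the MUNC vector gave different levels of Gm45923 under them, and the part of either in these differences was not tested.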

How the results depend on the processing

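Of 105 alternative counts, 72 stayed within 1.5 times the main one. The 499 genes of the interaction became 176 at an adjusted p under 0.01, 1155 with DESeq2 and 944 with limma on log2(TPM + 1), and between 198 and 496 with 1 WT-labelled library left out. They became 1033 with the replicate block (486 higher and 547 lower, all 499 shared) and 1351 with the block in the 8 WT-labelled libraries alone, where the call of Neb was lost (adjusted p = 0.0603). With the block in all libraries Igf2 (0.0229), Id3 (0.0413) and Dysf (0.0347) passed. Libraries of the same replicate number deviated together in the WT-labelled groups (correlations of 0.176 to 0.559 over 6 pairs of groups) but not in all groups (-0.0126 to 0.712 over 28 pairs), and Zrsr1 took 1.49% to 13% of the counts in the 8 libraries of replicate 2 and at most 0.0344% in the others. With 2 replicate numbers and no label that ties them to a shared batch, they are not taken to pair the samples. At an adjusted p under 0.01 the vector difference gave 922 genes in GM and 2962 in DM, and the medium 3523 in EV and 3776 in MUNC cells. With the block in WT-labelled libraries alone the vector difference in GM gave 3599 genes. Leaving out 1 library gave 963 to 1200 genes for the vector in GM, 3140 to 4119 in DM, 3833 to 4684 for the medium in EV cells and 4015 to 4426 in MUNC cells. The knockout-labelled interaction gave 1 gene with limma. The difference between the labels gave 20 genes at 0.01, 326 with DESeq2, 337 with limma, 169 with the block (60 higher and 109 lower) and 30 to 83 with 1 library left out. Among the genes whose interaction is described, signs turned in 3 that had not passed: Cxcl10 without MUNC GM replicate 2 (0.13, within -1.24 to 0.13 over the left-out libraries), Gm45923 without EV GM replicate 1 (-1.56) or EV DM replicate 2 (-0.34, within -1.56 to 2.61), and Myod1 with limma (-0.32) or without EV GM replicate 1 (-2.71), EV DM replicate 2 (-0.54) or MUNC DM replicate 1 (-0.27, within -2.71 to 2.66). Of 64 named genes past the test, 21 kept the call in every alternative run and 22 in every left-out library. Fewer libraries leave fewer degrees of freedom, and otherwise the cause was not tested. Other scalings moved the median of all genes to between -0.02 and 0.03.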

Other observations

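Several gene families, grouped after their values were seen and given as counts with no test of the family, had negative interactions, and a few of their members are also in the interferon list. Of 17 tested MHC class I genes 12 passed with a negative interaction (2.09% of all genes), with a median of -2.31. H2-K1, a classical class I gene, stood at 42.9 and 43.7 CPM in EV GM, 351 and 410 CPM in EV DM, 19.5 and 18.4 CPM in MUNC GM and 31.6 and 35.5 CPM in MUNC DM (interaction -2.31 ± 0.21, adjusted p = 0.000226, edgeR). Among 8 Schlafen genes 4 passed (median -3.14), among 10 Ifi200 genes 6 (median -4.72), among 6 T-cell-specific and immunity-related GTPases 6 (median -6.30) and among 9 Ly6 genes 4 (median -3.30), all negative. Among 7 Serpinb9 genes 3 passed (median -4.74). Serpinb9g stood at 2.15 and 1.47, 12.4 and 33.01, 0.681 and 1.3 and 0.0589 and 0.182 CPM, and it fell in MUNC cells as it rose in EV cells (log2 change -2.87 and 3.64). Close paralogs within these families may share fragments.

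Of 19 cytosolic aminoacyl-tRNA synthetases, which charge tRNAs for translation, 5 passed with a negative interaction (2.09% of all genes, median -0.87). With MUNC 13 were lower in DM (17.7% of all genes). From GM to DM 17 fell in MUNC cells (19.2% of all genes). In EV cells 5 fell and 2 rose (18.3% and 19.2% of all genes). Cars, the cysteine enzyme, stood at 124 and 99.1 CPM in EV GM, 86.6 and 130.3 CPM in EV DM, 123 and 98.6 CPM in MUNC GM and 34.3 and 39.97 CPM in MUNC DM, lowest in MUNC DM. Of 10 S100a genes 2 passed with a positive interaction (1.24% of all genes, median 1.02) and 8 were higher with MUNC in DM (15.6% of all genes). In 74 ribosomal protein genes, 9 chaperonin subunits and 25 Hox genes 0 passed in the edgeR test, and 0, 2 and 1 had an unadjusted p under 0.05.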
